A study of Homo sapiens with 4 samples.

Results

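Uracil1 is 1 of the 9 synthetic DNA hairpins of a single-cell DNA repair experiment, and it is described here at all of its 61 positions, out of 549 positions over the 9 hairpins. Its rows were chosen by name alone: every repair row of the deposited matrix whose substrate is called Uracil1. The cells were MDA MB 134VI (MM134), an established line of lobular carcinoma of the breast with the genotype label WT. All cells were deprived of hormone and then kept for 24 h with vehicle, which was 0.01% ethanol, or with 100 nM estradiol, the ligand of the estrogen receptor. There was 1 repair library and 1 targeted mRNA library per treatment, 4 samples in all, so a culture effect and the treatment cannot be told apart and nothing was tested. The sources used here do not give the hairpin sequence, the position of its uracil or the base opposite it, and no sequence is printed.

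Uracil enters DNA by deamination of cytosine or by incorporation of dUTP in place of dTTP, and base excision repair removes it. A uracil DNA glycosylase (UNG, SMUG1, TDG or MBD4) cuts the bond between base and sugar, an endonuclease, mainly APEX1, incises the strand at the abasic site that is left, and polymerase and ligase fill and seal the gap. In Haircut, hairpins that carry a lesion meet the enzymes of each single cell, and the place where the captured strand ends is counted. A rise of strand ends at a few positions that the lesion-free hairpin lacks therefore reads incision at the lesion.

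There were 4940 vehicle cells and 3367 estradiol cells. Uracil1 gave 379830 unique molecules (UMIs) in vehicle and 367154 in estradiol, which were 8.02% and 8.20% of all repair UMIs. A vehicle cell had a median of 73 Uracil1 UMIs (quartiles 55 and 97) and an estradiol cell 106 (quartiles 81 and 133), beside median repair UMIs of 930 and 1311. The estradiol library was thus the deeper one per cell. In vehicle 209 cells and in estradiol 39 cells had fewer than 30 Uracil1 UMIs, and 4 cell barcodes occurred in both libraries. The line's luminal markers ESR1, GATA3, FOXA1, KRT8, KRT18 and KRT19 were detected in both libraries. KRT19 stood at 2306 CPM (counts per 1e+06 all-gene UMIs) in vehicle and 2969 CPM in estradiol, and CDH1, the E-cadherin gene often lost in lobular cancer, at 10.1 and 10.3 CPM. Of the 10 markers of basal, immune, endothelial and mesenchymal cells, KRT5, KRT14, ACTA2, PTPRC, CD3E, PECAM1, COL1A2 and DCN were at 0 in both libraries. CD68 had 1 UMI, in estradiol, and COL1A1, a collagen gene, stood at 26.0 CPM in vehicle and 21.1 CPM in estradiol.

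Each position is given as its share of the Uracil1 UMIs of the cells named, so a rise at 1 position lowers the others. Brackets hold exact binomial 95% intervals of shares, or exact conditional 95% intervals of log2 ratios, and they cover counting error only. Between cells the share of the window described next varied 5.76 times as much as counting alone gives in vehicle and 8.03 times in estradiol. All intervals here are accordingly too narrow.

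The highest single position of the Uracil1 profile was 45, with a cluster of upstream positions behind it. Position 45 held 18.3% (18.2 to 18.4) of Uracil1 UMIs in vehicle and 17.95% (17.8 to 18.1) in estradiol. Position 10 followed with 14.8% and 15.1%, position 16 with 9.26% and 9.40%, position 14 with 7.96% and 8.26%, and position 8 with 6.29% and 5.80%. These 5 led in the same order in both libraries and together held 56.6% of the UMIs in vehicle and 56.5% in estradiol. The profile was concentrated, since 4 positions made up at least 50% of the UMIs in each library, while 90% took 25 positions in vehicle and 24 in estradiol. Position 45 was also the most widely detected, with a UMI in 99.6% of vehicle cells and 99.9% of estradiol cells.

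The lesion-free hairpin, called Normal, showed how unlike an unmodified strand this was. At position 45 Normal held 56 UMIs in vehicle and 46 in estradiol, or 0.0085% and 0.0074% of its own total. The Uracil1 share at 45 was 2161 times the Normal share in vehicle and 2425 times in estradiol. From position 45 to position 60 the Uracil1 share was at least 10 times the Normal share at 15 of 16 positions in vehicle and 14 of 16 in estradiol, and it was under that at every position from 1 to 44. The highest ratio among positions 1 to 44 was 9.89 in vehicle and 9.32 in estradiol, both at position 3. Of those 44 positions, 25 were below the Normal share in vehicle and 26 in estradiol. At others the Uracil1 share was above Normal by less than 10-fold, as at position 10 with 7.10 and 7.32 times the Normal share and at position 8 with 6.64 and 6.86 times. Ratios of 10 or more thus began at 45, while smaller excesses over Normal lay upstream as well.

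The boundary itself was narrow. Position 43 held 0.0079% of Uracil1 UMIs in vehicle and 0.0060% in estradiol, and position 44 held 0.101% (0.0915 to 0.112) and 0.0896% (0.0802 to 0.0998). Position 46, next to the peak, held 4.52% (4.45 to 4.58) and 4.98% (4.91 to 5.05), and the shares then fell to 1.18% and 1.26% at 47 and 1.07% and 1.30% at 48. Position 49 was a small second rise with 1.71% in vehicle and 1.84% in estradiol, and position 50 held 0.577% and 0.618%. Nearly all of the window from 44 to 50 thus came from 45 and its 3' neighbours, and almost none from 44.

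Added up, positions 44 to 50 held 27.4% (27.3 to 27.6) of Uracil1 UMIs in vehicle and 28.0% (27.9 to 28.2) in estradiol. The same window of Normal held 0.113% (0.105 to 0.121) and 0.102% (0.0944 to 0.110). Beyond the window, positions 51 to 60 carried a low tail of 2.38% (2.33 to 2.43) and 2.65% (2.60 to 2.70), where Normal had 0.0515% and 0.0473%. Upstream, positions 1 to 22 held 64.1% and 64.0% and positions 23 to 43 held 6.05% and 5.33%. In Normal those same stretches held 81.7% and 82.3%, and 18.2% and 17.5%. Position 1, the first base, held only 2.34% and 2.20% of Uracil1 UMIs, and position 61, the last, had 9 UMIs in vehicle and 7 in estradiol. The sources used here do not say what the strand ends upstream of 44 stand for.

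Among the 4 hairpins with U or uracil in their name, Uracil1 had the highest window share. Its window share of 27.4% in vehicle and 28.0% in estradiol compares with 15.3% and 15.4% for Uracil2, 10.2% and 11.5% for Uracil3, and 7.21% and 8.48% for GU. In all 4 of these hairpins position 45 was the highest of the window in both libraries. Abasic, which already holds the product of the glycosylase step, had 63.8% and 57.9% in the window and its highest position at 46. Of the UMIs at 45 and 46 together, position 46 took 19.8% and 21.7% in Uracil1, 15.4% and 16.1% in Uracil2, 10.0% and 9.98% in GU, and 84.1% in both libraries in Abasic. Within the window, the commonest Uracil1 strand end was therefore 1 position short of the commonest Abasic end. The sources used here do not say how the designs of these hairpins differ.

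Estradiol and vehicle gave nearly the same Uracil1 profile. Of 61 positions, 52 had at least 500 UMIs over both libraries, and the other 9 each held between 0.0019% and 0.0595% of the UMIs. Shares at 33 of the 52 lay within 1.1-fold of each other. At 2 positions the estradiol share was higher and at 4 lower by at least 0.32 on the log2 scale, with intervals that excluded equal shares. Over all hairpins the same rule took 2.82% of 390 positions as higher and 4.36% as lower. The median log2 ratio was -0.013 over the 52 Uracil1 positions and -0.0073 over all 390.

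The 2 higher positions were 51, a base beyond the window, and 23, a sparse position in the middle of the hairpin. Position 51 held 0.236% (0.221 to 0.252) in vehicle and 0.352% (0.334 to 0.372) in estradiol, a log2 ratio of 0.58 (0.46 to 0.70). Position 23 held 0.103% and 0.135%, a log2 ratio of 0.39 (0.20 to 0.59). Position 58 came next with 0.101% and 0.126%, a log2 ratio of 0.32 (0.12 to 0.52) that stayed just under that line. The 4 lower positions were neighbours, 34 to 37, just upstream of a nearly empty stretch.

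The lowest ratio was at position 36, which held 0.0866% in vehicle and 0.0577% in estradiol, a log2 ratio of -0.59 (-0.84 to -0.33). Position 35 held 0.291% and 0.207%, a log2 ratio of -0.50 (-0.63 to -0.36), and position 37 held 0.179% and 0.132%, a log2 ratio of -0.44 (-0.62 to -0.27). The drop ran over the whole stretch: positions 33 to 43 together held 1.88% in vehicle and 1.46% in estradiol, a log2 ratio of -0.36 (-0.41 to -0.31). Other hairpins had values of the same sign. The same stretch had log2 ratios of -0.50 (-0.56 to -0.45) in Uracil2, -0.29 (-0.42 to -0.17) in Uracil3, -0.17 (-0.20 to -0.13) in GU and -0.13 (-0.16 to -0.10) in Normal. In Abasic, where the stretch was nearly empty with 0.0694% and 0.0740%, the ratio was 0.093 (-0.19 to 0.38). Within phases the Uracil1 stretch had log2 ratios of -0.25 (-0.33 to -0.18) in G1, -0.14 (-0.27 to -0.0067) in S and -0.30 (-0.38 to -0.21) in G2M, each nearer 0 than over whole libraries.

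Over whole libraries the largest position of the window and its neighbours had ratios of opposite sign. Position 45 was lower in estradiol by a log2 ratio of -0.028 (-0.043 to -0.012), and position 46 was higher by 0.14 (0.11 to 0.17). Positions 46 to 50 together held 9.05% in vehicle and 10.0% in estradiol, a log2 ratio of 0.14 (0.12 to 0.17), and positions 51 to 60 had a log2 ratio of 0.15 (0.11 to 0.20). The net difference over positions 44 to 50 was small, with a log2 ratio of 0.031 (0.018 to 0.043). Within phases position 45 was again lower, with -0.041 in G1, -0.035 in G2M and -0.097 in S. Position 46 was nearer 0 than over whole libraries, with 0.047 (-0.011 to 0.10) in G1, 0.022 (-0.023 to 0.068) in G2M and 0.077 (0.018 to 0.14) in S. In cells of like repair depth, in 4 equal groups over both libraries, position 45 was instead higher in estradiol, with 0.18, 0.18, 0.22 and 0.11 from the shallowest group to the deepest. Positions 51 to 60 had 0.92, 0.21, -0.18 and 0.020 in those groups. When each library was instead split into 4 groups by its own repair depth, position 45 had 0.0086, -0.0083, -0.044 and -0.079 in the same order. In clusters 1, 4 and 5 both positions 45 and 46 were lower in estradiol, with intervals below 0. Both ratios were below 0 in clusters 2 and 7 as well, where the interval at 45 included 0. Position 45 was lower in cluster 0 too, with -0.043 (-0.074 to -0.012). It was higher in estradiol in cluster 3, with 0.099 (0.055 to 0.14), and in cluster 6, with 0.12 (0.044 to 0.20). At 46 the intervals of clusters 0, 3 and 6 included 0. The direction of the ratios at positions 45 and 46 thus depended on which cells were compared.

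The 2 libraries differed in their cells, and the sign of that small difference followed how cells were weighted. S-phase cells, by the deposited phase call, made up 15.6% of the vehicle library and 29.0% of the estradiol library, and G1 cells 50.5% and 34.5%. Within a phase, the estradiol over vehicle log2 ratio of the window was -0.0047 (-0.026 to 0.016) in G1, -0.0031 (-0.024 to 0.017) in G2M and -0.04 (-0.065 to -0.016) in S. With equal weight to the 3 phases it was -0.018, and with equal weight to the clusters -0.056. Cells of like repair depth gave the other sign: over 4 equal groups of all cells by repair UMIs, from the shallowest to the deepest, the log2 ratio was 0.30, 0.22, 0.16 and 0.10. With equal weight to those 4 groups it was 0.20. When each library was instead split into 4 groups by its own repair depth, it was 0.075, 0.086, 0.010 and -0.033 in the same order. The window as a whole therefore had no treatment difference that kept its direction across these weightings.

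Cell-cycle phase went with a larger difference than treatment did, and S phase was the high one. In vehicle the window held 26.7% (26.5 to 26.9) of Uracil1 UMIs in G1 cells, 33.9% (33.5 to 34.3) in S cells and 25.6% (25.4 to 25.8) in G2M cells. In estradiol it held 26.6% (26.4 to 26.9), 32.96% (32.7 to 33.2) and 25.6% (25.3 to 25.8). The S over G1 log2 ratio was 0.34 (0.32 to 0.37) in vehicle and 0.31 (0.28 to 0.33) in estradiol, and that of G2M over G1 was -0.061 (-0.081 to -0.042) and -0.06 (-0.082 to -0.038). Per cell, among the 4731 vehicle and 3328 estradiol cells with at least 30 Uracil1 UMIs, the median share was 24.0% in G1 and 32.6% in S in vehicle, and 24.2% and 31.4% in estradiol. The per-cell ranges overlapped widely, since the middle 50% of cells ran from 18.2% to 31.3% in G1 and from 27.1% to 38.9% in S in vehicle.

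Where in the window the strand ended differed between phases, as did how much ended there. Position 45 held 19.2% in G1, 22.5% in S and 15.6% in G2M in vehicle, and 18.7%, 21.0% and 15.2% in estradiol. Position 46 held 3.49%, 5.76% and 5.14% in vehicle, and 3.61%, 6.07% and 5.22% in estradiol. G2M cells were thus lowest at 45 while standing close to S cells at 46. Of the UMIs at 45 and 46, position 46 took 15.4% (15.03 to 15.8) in G1, 20.4% (19.8 to 21.0) in S and 24.8% (24.3 to 25.3) in G2M in vehicle. In estradiol it took 16.2% (15.7 to 16.7), 22.4% (21.9 to 22.9) and 25.6% (25.1 to 26.1). The order G1, S, G2M held in both libraries.

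Counted by position, S cells of the vehicle library were above G1 cells by at least 0.32 on the log2 scale at 7 of 41 Uracil1 positions with at least 500 UMIs, and below them at 7. Over all hairpins 16.3% of positions were higher and 5.88% lower by that rule. In estradiol 6 of 42 were higher and 5 lower, beside 13.7% and 4.23% over all hairpins. Positions 46, 47, 48 and 50 were higher in both libraries, or 57.1% of the vehicle list and 66.7% of the estradiol list, and 32, 33, 34 and 35 were lower in both, or 57.1% and 80.0%. Position 34 went from 0.739% in G1 to 0.331% in S in vehicle, a log2 ratio of -1.16 (-1.38 to -0.94), and from 0.619% to 0.321% in estradiol, a log2 ratio of -0.95 (-1.14 to -0.76). Positions 33 to 43, the stretch that was lower in estradiol than in vehicle, had S over G1 log2 ratios of -0.92 (-1.03 to -0.81) in vehicle and -0.81 (-0.91 to -0.71) in estradiol. Within phases the estradiol over vehicle log2 ratio at position 34 was -0.26 (-0.39 to -0.12) in G1, -0.046 (-0.30 to 0.21) in S and -0.22 (-0.39 to -0.055) in G2M. None of the 3 reached the 0.32 that position 34 passed over whole libraries.

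In G2M against G1 cells of the vehicle library, 15 of 45 positions were higher and 11 lower, where all hairpins gave 27% and 15.3%. In estradiol 7 of 44 were higher and 5 lower, where all hairpins gave 16.4% and 10.5%. All 7 higher and all 5 lower positions of the estradiol list were also on the vehicle list. Position 51 had the highest ratio in both, with 0.125% in G1 and 0.326% in G2M in vehicle, a log2 ratio of 1.39 (1.15 to 1.63), and 0.160% and 0.452% in estradiol, a log2 ratio of 1.502 (1.26 to 1.75). Position 51 was also high in S cells, with 0.317% in vehicle and 0.417% in estradiol. Estradiol cells were less often in G1, and the estradiol share at 51 was also the higher one within each phase: 0.160% against 0.125% in G1, 0.417% against 0.317% in S and 0.452% against 0.326% in G2M.

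Repair depth moved with these shares, and the phase difference was present at each depth. When each library was split into 4 equal groups of cells by repair UMIs, the window share from the shallowest to the deepest was 32.8%, 28.2%, 27.6% and 24.9% in vehicle, and 34.5%, 29.9%, 27.8% and 24.3% in estradiol. The window was smaller in deeper cells. Within the shallowest group it was 30.9% in G1 and 39.2% in S in vehicle, and 31.3% and 40.1% in estradiol. Within the deepest it was 24.6% and 30.8% in vehicle, and 22.9% and 28.4% in estradiol. S cells were above G1 cells in all 4 groups of both libraries, with log2 ratios between 0.28 and 0.42. G2M cells, lower than G1 cells over all depths, were mostly not lower at like depth. The G2M over G1 log2 ratio from the shallowest group to the deepest was 0.14, 0.056, 0.044 and -0.067 in vehicle, and 0.098, 0.084, -0.017 and 0.0082 in estradiol, so it was below 0 in the deepest vehicle group and the third estradiol group only.

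The other uracil hairpins were also higher in S than in G1, while Abasic and riboG had ratios nearer 0. The S over G1 log2 ratio of the window, 0.34 and 0.31 for Uracil1 in vehicle and estradiol, was 0.38 (0.35 to 0.42) and 0.32 (0.28 to 0.35) for Uracil2. It was 0.72 (0.61 to 0.83) and 0.63 (0.53 to 0.74) for Uracil3, and 0.63 (0.60 to 0.66) and 0.55 (0.52 to 0.58) for GU. For Abasic it was -0.026 (-0.045 to -0.0076) and -0.052 (-0.070 to -0.034), and for riboG, a hairpin named for a ribonucleotide, 0.11 (0.057 to 0.17) and -0.0061 (-0.055 to 0.043). The Normal window gave 0.29 (-0.024 to 0.59) and -0.14 (-0.45 to 0.17). The Uracil1 ratio was below those of Uracil3 and GU in both libraries, with intervals that did not overlap, and its interval overlapped that of Uracil2.

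The deposited annotation split the cells into 8 clusters, and the Uracil1 window differed more between clusters than between phases. The sources used here do not say which rows the authors clustered, so the profile may have helped to make the clusters, and these values are a description. Cluster 1 was highest in both libraries, with 35.4% (34.9 to 35.8) in vehicle and 32.5% (32.2 to 32.8) in estradiol. Cluster 7 was lowest in both, with 20.6% (20.1 to 21.1) and 19.3% (18.7 to 19.995). The ratio of highest to lowest was 1.72 (1.66 to 1.77) in vehicle and 1.68 (1.62 to 1.75) in estradiol. S cells were 69.8% and 60.3% of cluster 1 and 0.855% and 1.16% of cluster 7.

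The remaining clusters lay between these ends. Cluster 5, almost all G1 cells, had 30.9% in vehicle and 26.7% in estradiol, and cluster 0, mostly G2M cells, had 29.4% and 29.1%. Cluster 6 had 28.1% and 28.9%, and cluster 3 had 25.8% and 26.8%. Cluster 2 had 24.4% and 23.8%, and cluster 4, all G2M cells, had 22.7% and 21.7%. Clusters 0 and 4 were both G2M groups, so phase alone did not order the clusters: their G2M cells held 28.7% and 22.7% in vehicle and 27.7% and 21.7% in estradiol. Cluster 2 fell from 23.3% of vehicle cells to 2.44% of estradiol cells, and cluster 6 from 12.7% to 2.35%, while cluster 1 went from 12.1% to 26.8%.

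Within clusters that had at least 50 cells of both phases, S cells were again above G1 cells. In cluster 1 the window held 32.4% in G1 and 36.4% in S in vehicle, and 28.8% and 34.4% in estradiol. In cluster 3 it held 25.7% and 29.9% in vehicle, and 26.1% and 29.8% in estradiol, and in cluster 2, where estradiol cells were too few, 24.2% and 28.4% in vehicle. The log2 ratios, from 0.17 to 0.26, were smaller than over all cells.

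Position by position, clusters took different roles along the hairpin. At position 45 cluster 1 was highest in both libraries, with 24.7% and 22.7%, and cluster 4 lowest, with 13.8% and 12.9%. At position 46 cluster 0 was highest, with 6.06% and 6.16%, and cluster 2 was lowest in vehicle with 2.65% and cluster 7 in estradiol with 2.48%. Cluster 3, the deepest in repair UMIs with medians of 1240 and 1597, led at 10 of the 12 positions from 45 on that had at least 500 UMIs in vehicle, and at 9 of 12 in estradiol. Its tail over positions 51 to 60 was 4.64% in vehicle and 4.01% in estradiol, against 0.908% and 1.11% in cluster 2, the shallowest, with medians of 747 and 949.5. At position 51 alone, cluster 3 held 0.488% and 0.540%, and cluster 2 held 0.0597% and 0.0858%. Upstream no single order held. Of the positions before 44 with at least 500 UMIs, cluster 2 was highest at 16 of 33, cluster 3 at 7 and cluster 7 at 5 in vehicle. In estradiol clusters 2 and 7 were each highest at 8 of 32 and cluster 3 at 5. At position 34 cluster 2 held 1.03% and 0.995%, and cluster 3 held 0.260% and 0.275%. At position 1 cluster 2 held 3.35% and 3.00%, and cluster 3 held 1.67% and 1.74%. At position 19 it was cluster 3 that was high, with 1.46% and 1.2501%, against 0.363% and 0.326% in cluster 2. The estradiol values of cluster 2 rested on few UMIs, with 58 at position 34 and 19 at position 19.

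Single cells spread widely in their Uracil1 window share. Among cells with at least 30 Uracil1 UMIs the median was 25.3% in vehicle and 26.1% in estradiol, the standard deviation over cells was 11.8 and 11.5 percentage points, and the highest cells reached 89.7% and 88.8%. Position 45 had no UMI in 8 such vehicle cells and 1 estradiol cell. A share of at least 60% was found in 105 of 4731 vehicle cells (2.22%) and 76 of 3328 estradiol cells (2.28%). These high cells came from every phase, with 54 in G1, 24 in S and 27 in G2M in vehicle, and 29, 26 and 21 in estradiol. They were shallower in repair UMIs than their libraries, with medians of 567 and 832, while their Uracil1 UMIs were not fewer, with medians of 87 and 138. Their median mitochondrial percent, 7.75 and 8.01, was close to the 7.66 and 7.62 of all cells.

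Uracil2, Uracil3 and GU, which played no part in ranking cells, followed Uracil1 in the same cells. When the cells of a library were put in 4 equal groups by their Uracil1 window share, the Uracil2 window went from 9.80% in the lowest group through 12.9% and 15.8% to 23.8% in the highest in vehicle. In estradiol it went from 9.87% through 13.1% and 15.6% to 24.4%. GU went from 4.12% to 12.4% in vehicle and from 4.74% to 14.7% in estradiol, and Uracil3 from 5.72% to 18.0% and from 5.97% to 20.4%. These 3 hairpins were therefore higher in the cells where Uracil1 was higher. Abasic differed less, with 64.4% in the lowest group and 65.6% in the highest in vehicle and 56.8% and 60.3% in estradiol. Normal, at a far lower level, went from 0.0968% through 0.112% and 0.121% to 0.127% in vehicle, and held 0.100%, 0.0981%, 0.0926% and 0.121% in estradiol.

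The same order stood within 1 phase. Among G1 cells the Uracil2 window went from 9.50% in the lowest Uracil1 group to 23.8% in the highest in vehicle, and from 9.15% to 24.5% in estradiol. riboG also went up, though less, from 4.13% to 7.04% and from 4.50% to 8.24%. In the cells with a Uracil1 share of at least 60%, Uracil2 reached 52.2% and 55.5%, GU 36.6% and 43.6% and riboG 21.5% and 27.0%, while Abasic was at 70.6% and 65.2%. Normal was also higher in these cells, at 0.275% (0.16 to 0.44) and 0.337% (0.20 to 0.53), against 0.113% and 0.102% over whole libraries. The hairpins of a cell share its library and depth, and the median repair UMIs of the highest group, 862 and 1163, were below those of the lowest, 939 and 1374. The part of depth in this order was not tested.

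The transcripts of uracil repair were looked at in the all-gene rows, the rows of the matrix with plain gene symbols, in the same cells. The list holds 22 genes for uracil removal and the steps after it, and all 22 had at least 50 UMIs. None was at least 1.5-fold higher and none at least 1.5-fold lower in estradiol, where 3.4% and 5.74% of all 10977 genes were. The median log2 ratio of the list was 0.17 and that of all genes -0.034. Of the 22 genes, 16 had a ratio above 0, as did 45.6% of all genes, and 10 had an interval above 0, as did 16.2% of all genes.

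UNG, the main glycosylase for uracil in replicating DNA, lies on chromosome 12 at 109097597 to 109110992 (GRCh38.p14, RefSeq). It stood at 27.3 CPM (23.6 to 31.5) in vehicle and 40.4 CPM (35.5 to 45.9) in estradiol, a log2 ratio of 0.57 (0.28 to 0.85) from 189 and 240 UMIs. DUT, which clears dUTP from the nucleotide pool, stood at 221 CPM in vehicle and 298 CPM in estradiol, with a log2 ratio of 0.43 (0.33 to 0.53). The other glycosylases were level within counting error: SMUG1 at 24.6 and 24.1 CPM, TDG at 107 and 112 CPM, and MBD4 at 66.8 and 69.7 CPM. APEX1, the abasic site endonuclease, stood at 172 and 183 CPM, with a log2 ratio of 0.094 (-0.026 to 0.21).

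Among genes for the abasic site and later steps, PARP2, a strand break sensor, had the highest log2 ratio in the all-gene rows, 0.50 (0.26 to 0.75). APEX2, a relative of APEX1, had 0.44 (0.098 to 0.78). FEN1, a flap endonuclease, had a log2 ratio of 0.39 (0.22 to 0.55), LIG1, the ligase of replication, 0.40 (0.20 to 0.60), and PARP1, the other strand break sensor of the list, 0.35 (0.27 to 0.44). PCNA, the sliding clamp of replication, had 0.39 (0.25 to 0.53). XRCC1, a scaffold of single-strand break repair, had 0.24 (0.025 to 0.46). LIG3, its partner ligase, stood at 68.2 CPM in both libraries, and POLB, the gap-filling polymerase, -0.12 (-0.50 to 0.25). The panel rows, which are deeper for POLB and PARP2, gave POLB 231 CPM in vehicle and 188 CPM in estradiol, a log2 ratio of -0.30 (-0.38 to -0.22). For PARP2 the panel rows gave 0.30 (0.25 to 0.35), below their 0.44 for FEN1, 0.37 for PCNA and 0.31 for PARP1.

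By phase, UNG was highest where the Uracil1 window was highest. In vehicle it stood at 19.3 CPM in G1, 79.1 CPM in S and 16.5 CPM in G2M, and in estradiol at 31.2, 85.2 and 16.6 CPM. The S over G1 log2 ratio was 2.03 (1.53 to 2.54) in vehicle and 1.45 (1.00 to 1.91) in estradiol. DUT, FEN1 and PCNA were also higher in S, with 1.89, 2.38 and 2.29 in vehicle and 1.61, 1.93 and 1.99 in estradiol. The sources used here do not say which genes gave the phase call, so these transcripts may have helped to make it. TDG was lower in S than in G1, with log2 ratios of -0.53 (-0.90 to -0.18) and -0.36 (-0.67 to -0.052). For SMUG1 and MBD4 both intervals included 0. More of the estradiol cells were in S, and the part of that in the whole-library ratios of UNG and the other listed genes was not tested. Within S cells DUT stood at 514 CPM in vehicle and 513 CPM in estradiol, FEN1 at 218 and 205, PCNA at 288 and 279, and LIG1 at 113 and 114. In G1 and G2M cells each of these stood higher in estradiol, as FEN1 with 42.0 and 53.9 CPM in G1 and 80.3 and 89.8 CPM in G2M. PARP1 stood higher in estradiol in every phase, with 429 and 465 CPM in S.

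Across clusters UNG ran from 9.02 CPM in cluster 4 to 85.3 CPM in cluster 1 in vehicle, and from 8.40 CPM in cluster 4 to 79.3 CPM in cluster 1 in estradiol. Cluster 1 was thus highest both in UNG and in the Uracil1 window. In clusters with few cells the UNG values rested on as little as 1 UMI. Over the 8 clusters the rank correlation of the window share with UNG, as a description with no p-value since the clusters share a library, was 0.81 in vehicle and 0.71 in estradiol. For SMUG1 it was -0.048 and 0.095, for TDG -0.62 and -0.40, for MBD4 0.14 and -0.19, and for APEX1 0.33 and 0.095.

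Over the 4 groups of cells by their own Uracil1 window share, UNG went in the same order. It stood at 14.2 CPM (8.88 to 21.5), 19.4, 28.4 and 48.1 CPM (37.9 to 60.1) from the lowest to the highest group in vehicle, and at 23.9 CPM (16.6 to 33.2), 36.3, 45.7 and 56.7 CPM (44.8 to 70.9) in estradiol. TDG went the other way, from 122 to 93.1 CPM and from 126 to 85.5 CPM. S cells made up 3.47%, 8.39%, 19.8% and 31.4% of those groups in vehicle and 7.95%, 21.8%, 39.6% and 46.5% in estradiol. Within G1 cells the UNG values were 18.3, 14.9, 19.1 and 24.0 CPM in vehicle and 23.9, 26.6, 37.9 and 35.6 CPM in estradiol, from 10 to 18 UMIs per group. A difference of UNG within G1 cells was not detectable at this depth. Within S cells of vehicle UNG stood at 40.2 CPM (20.1 to 72.0), 82.3, 121 (82.0 to 171) and 79.0 CPM (47.6 to 123). There the interval of the lowest group lay below that of the third group and overlapped that of the highest group. Within S cells of estradiol UNG stood at 85.0, 77.4, 87.3 and 91.8 CPM, and all 4 intervals overlapped.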

How the data were processed

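The authors deposited 1 matrix of natural log values for 8307 cells, with 549 repair rows, and an annotation with the counts of UMIs per cell, the mitochondrial percent, the treatment, the cluster and the phase of each cell, per the file headers. Per the submitters' processing notes, the tools were UMI-tools 0.5.3, Bowtie2 2.3.2, cutadapt 1.8.3, SAMtools and Cell Ranger 3.0.2, and the build hg38; what each did is not stated. The deposited values, as natural log, were undone with the scale of 10000, a pseudocount of 1 and the totals of each cell, which returned UMI counts. Every value above 0 (100%) was then a whole number to within 1e-06, and cell sums equalled the authors' totals in 100% of cells. The design had assumed deposited counts.

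For each library, phase or cluster, UMIs were added up over its cells with Python 3.11.15, numpy 2.4.6, pandas 2.3.3 and scipy 1.17.1. Shares have Clopper-Pearson 95% intervals, ratios exact conditional ones and CPM exact Poisson ones. The code was tested on simulated data. A position counted as higher or lower from 0.32 on the log2 scale, with 500 UMIs over the groups compared, and a gene from 1.5-fold, with 50 UMIs. No deposited cell was left out and no doublet caller was run. Groups under 50 cells are not given. The positions, the window 44 to 50 and the gene list were chosen with earlier results of these data known. Named positions were the 5 highest in each library, 44 to 50, both ends, and the 3 highest and 3 lowest treatment ratios. The other positions named, the 60% line and the groups of cells by depth or window share were chosen after their values were seen. Alternatives covered cell weighting, thinning to 30 UMIs, depth limits, denominators, the window, the control and the mix of cells.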

Additional observations from a re-analysis of the deposited data

Results flagged for a closer look

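The estradiol over vehicle log2 ratio of the Uracil1 window had opposite signs in different clusters, with intervals for counting error that excluded 0 on both sides. Cluster 3 was higher in estradiol, with 0.055 (0.023 to 0.088), the only cluster with an interval above 0. Between its cells the window share varied 3.44 times as much as counting alone gives in vehicle and 7.74 times in estradiol. That interval is accordingly too narrow. Cluster 1 was lower with -0.12 (-0.15 to -0.094), cluster 4 with -0.064 (-0.11 to -0.020), cluster 5 with -0.21 (-0.26 to -0.17) and cluster 7 with -0.091 (-0.16 to -0.024). The difference between clusters was not tested, because there was 1 library per treatment. Cluster 5, the lowest of these, went from 30.9% of Uracil1 UMIs in the window in vehicle to 26.7% in estradiol. Its cells were G1 cells in 97.0% and 95.6% of cases, with median repair UMIs of 829.5 and 1122. Clusters 0, 2 and 6 had intervals that included 0.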

How the results depend on the processing

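No paired analysis was possible because each treatment has 1 library, and for the same reason no replicate could be left out. Of 124 recomputed values, 78 stayed within the interval or 1.5 times the count of the value reported. The window share in vehicle, 27.4%, was 27.1% as a mean over cells and also after thinning to 30 UMIs, 27.9% without the 5% of cells with most repair UMIs, 2.20% of all repair UMIs and 22.9% for positions 44 to 46. The share in estradiol, 28.0%, was 27.8%, 27.9%, 28.4%, 2.298% and 23.02% in that order. As alternatives added after seeing the data, positions 45 to 60 gave 29.7% and 30.6%, and leaving out cluster 7 gave 27.9% and 28.4%. The estradiol over vehicle log2 ratio of the window, 0.031, was 0.063 of all repair UMIs and 0.0064 for positions 44 to 46. It reversed to -0.018 with equal weight to the 3 phases and to -0.056 with equal weight to the clusters. In alternatives added after seeing the data it was 0.20 with equal weight to 4 groups by repair UMIs and 0.14 with equal weight to phases and those groups. The cause was not tested. The S over G1 log2 ratio stayed above 0 in every alternative. In vehicle, 0.34, it was 0.37 after thinning, 0.44 of all repair UMIs and 0.31 for positions 44 to 46, and in estradiol, 0.31, it was 0.34, 0.37 and 0.28. Equal weight to 4 depth groups gave 0.37 and 0.34, and equal weight to clusters with 50 cells of both phases gave 0.20 and 0.23, both added after seeing the data. The ratio of the highest to the lowest cluster was 1.88 in vehicle and 1.82 in estradiol of all repair UMIs, and 1.56 and 1.496 without cluster 7, which was the lowest. The 2 positions higher in estradiol became 0 at 1.5-fold and 4 of all repair UMIs, and the 4 lower ones became 7 at a minimum of 100 UMIs and 1 at 1.5-fold. With a median-of-ratios size factor 1 listed gene passed 1.5-fold. The share of position 46 of 45 and 46 moved slightly when thinned, and the order of the phases was the same. With a median of 73 and 106 Uracil1 UMIs per cell, single cells give no profile by position, and only sums over cells do.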

Other observations

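Position 55 was a gap in the tail of Uracil1, with 0.010% (0.0071 to 0.014) of UMIs in vehicle and 0.021% (0.017 to 0.026) in estradiol, between 0.315% and 0.317% at position 54 and 0.425% and 0.424% at position 56. Position 51 was lower than position 52, which held 0.558% and 0.611%. The upstream profile also set Uracil1 apart from the lesion-free hairpin at single positions: position 9 held 2.01% and 2.04% of Uracil1 UMIs, 0.128 and 0.142 times the share of Normal. Position 20 held 1.44% and 1.42%, which was 0.0623 and 0.0551 times the share of Normal, whose highest position was 20.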
